A study of Homo sapiens with 36 samples.

Results

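Ribosome biogenesis genes are described here in BxPC-3 cells, a long-established human line from an adenocarcinoma of the pancreas, after a short exposure to 5 compounds. The set held 42 genes, chosen by name for their known work in making ribosomes, and all 42 were among the 14988 genes that passed a filter on low counts, of 29744 genes in the table. The rule for the choice names no measured value, but the genes were chosen with earlier results of these data known. By role, 4 of them serve transcription of ribosomal RNA by RNA polymerase I, 3 belong to box C/D particles, 4 belong to box H/ACA particles, 7 are nucleolar scaffold or multifunctional proteins, 11 build the small ribosomal subunit and 13 build the large one. Cells that the labels call wild type received 3 µM of TRAP1, TRAP-1-NegP, JQ1, TRAP-1-NegB or MS78, or DMSO, for 2 h or for 4 h. The name TRAP1 stands for the compound throughout, and the labels do not say what the endings NegP and NegB stand for. JQ1 blocks the acetyl-lysine pocket of the BET bromodomain proteins, which help RNA polymerase II leave promoters. Polyadenylated RNA of 3 libraries per compound and time was sequenced, 36 libraries in 12 groups. The replicates are numbered, but nothing says that they were separate cultures, so the p-values measure the spread between these libraries, which may be technical.

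Ribosomes are assembled in the nucleolus. RNA polymerase I, helped by the upstream binding factor UBTF, copies a long precursor RNA from the ribosomal DNA. Guide particles built on small nucleolar RNAs (snoRNAs) modify that RNA: box C/D particles add methyl groups and box H/ACA particles form pseudouridine. A large machinery of helicases, chaperones, methyltransferases and nucleases then cuts and folds the precursor into the small and large subunits. Most of these genes are classical targets of the transcription factor MYC, which binds the palindrome CACGTG, called an E-box, and growing cancer cells express them at high levels.

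Library totals ran from 15288688 to 26608325 estimated counts, and the 42 genes took between 0.621% and 0.814% of a library. All 10 ductal and epithelial marker genes were measured, with KRT19 at a mean of 3270 TPM, a level corrected for transcript length and depth, and their summed level was between 8950 and 12000 TPM. Endocrine and acinar markers summed to at most 0.397 TPM, with INS, GCG and AMY2A at 0 in every library, and mesenchymal markers to at most 2.91 TPM. Haematopoietic and endothelial markers summed to between 20.1 and 31.3 TPM, of which CD68 alone had a mean of 22.3 TPM. Of the 10 ductal and epithelial markers, 10 rose at 2 h with TRAP1, 8 with TRAP-1-NegP and 8 with JQ1, and at 4 h 9 rose with TRAP1, 7 with TRAP-1-NegP and 5 with JQ1, with which 2 fell. Of the 5 haematopoietic and endothelial markers that passed the filter, CD3E rose and CDH5 fell with TRAP1 at 4 h and CDH5 fell with TRAP-1-NegP, and the 2 mesenchymal markers that passed the filter rose at 4 h with TRAP1, TRAP-1-NegP and JQ1. The part of these markers in the results below was not tested. TRAP1 replicate 1 at 4 h and MS78 replicate 1 at 2 h stood apart from their groups. In chi-square per degree of freedom between replicates, they had 15.5 and 13.4, and 28.7 and 46.4, against 8.14 and 7.26 for the other pairs. DMSO replicate 1 at 4 h had 8.99 and 11.7, against 5.5, and JQ1 replicate 1 at 2 h 11.7 and 10.4, against 6.83. TRAP-1-NegP replicate 2 at 4 h had 11.1 and 10, against 6.07, and MS78 replicate 1 at 4 h 7.98 and 10.6, against 5.64. These DMSO, JQ1, TRAP-1-NegP and MS78 4 h libraries were not treated as standing apart. In the TRAP1 library 1287 genes that passed the filter had no read, while the other TRAP1 libraries of that time had 929 and 503 such genes.

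Levels between genes are compared here in TPM, which allow for transcript length. In DMSO libraries at 4 h, NPM1, which encodes nucleophosmin, was the highest of the 42 at 1169 ± 86.9 TPM (SD, n = 3 here and in the next sentences). Next came NOP10 at 497 ± 8.19, FBL at 476 ± 17.7, NCL at 471 ± 37.4 and NOP56 at 428 ± 6.89 TPM, of which FBL and NCL differed by less than their SD. The lowest were POLR1B at 10.2 ± 0.874, POLR1A at 9.95 ± 1.18, HEATR1 at 8.49 ± 1.46 and UTP20 at 4.45 ± 0.171 TPM. The roles were spread over the order: among the nucleolar scaffold genes NPM1 was at rank 1 and LYAR at rank 35, and among the guide-particle genes NOP10 was at rank 2 and GAR1 at rank 27.

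The genes on which the results turn lie, in build GRCh38 and as protein-coding genes of GENCODE 29, on chromosome 2 at 86020216 to 86106155 (POLR1A), 112541915 to 112577150 (POLR1B), 202265716 to 202303666 (NOP58) and 231453531 to 231483641 (NCL). GAR1 lies on chromosome 4 at 109815510 to 109824740, NPM1 on chromosome 5 at 171387116 to 171411137, PPAN on chromosome 19 at 10106289 to 10111634 and NOP56 on chromosome 20 at 2652145 to 2658393.

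Promoters of the genes were read for short motifs, from 250 bases before to 50 bases after the start of transcription in RefSeq's GRCh38.p14. Of the 42 genes, 35 had an entry. The E-box CACGTG, which reads the same on both strands, was present in 13 of the 35 (37.1%) and in 7.43% of all 27305 promoters. It lay upstream of the start in 6 of the 13, and in the other 7 it lay only downstream of it. The motif CCGGAAG, searched on both strands and typical of ETS-family factors, was in 11 (31.4%) against 10.7% of all promoters, AAGATGG, typical of YY1 and also searched on both strands, was in 6 (17.1%) against 6.06%, and the palindrome TCGCGA was in 5 (14.3%) against 3.16%. CCGGAAG and AAGATGG can overlap through a shared AAG, and a match describes letters, not a bound site. The stretches below, each written 5′ to 3′ on the strand of its gene with the E-box in capitals, are shown because their genes went opposite ways with TRAP1 at 4 h: FBL and EBNA1BP2 were higher than in DMSO, and the other 5 were lower. With library totals alone in place of scaled ones, FBL and EBNA1BP2 were no longer higher (−0.0648 and −0.0024 on the log2 scale), and without DMSO 4 h replicate 1 FBL was no longer called (adjusted p = 0.052).
FBL: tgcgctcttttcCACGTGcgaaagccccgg
EBNA1BP2: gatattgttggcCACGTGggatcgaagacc
MYBBP1A: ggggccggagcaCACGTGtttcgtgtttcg
MRTO4: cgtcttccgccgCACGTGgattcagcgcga
NAT10: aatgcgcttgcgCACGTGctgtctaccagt
PES1: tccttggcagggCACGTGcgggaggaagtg
UTP20: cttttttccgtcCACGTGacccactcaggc
The FBL stretch is at chr19:39846356-39846385 (minus strand) and its E-box begins 7 bases downstream of the start. For EBNA1BP2 it is at chr1:43172790-43172819 (minus strand), 237 bases upstream, and for MYBBP1A at chr17:4555340-4555369 (minus strand), 28 bases downstream. For MRTO4 it is at chr1:19251807-19251836 (plus strand), 15 bases downstream, and for NAT10 at chr11:34105602-34105631 (plus strand), 15 bases upstream. For PES1 it is at chr22:30591880-30591909 (minus strand), 14 bases downstream, and for UTP20 at chr12:101280083-101280112 (plus strand), 10 bases upstream.

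With TRAP1, TRAP-1-NegP and JQ1 the genes moved in both directions at once, and by 4 h more of them were lower than in DMSO than were higher. Changes are log2 fold changes of the compound over DMSO of the same time, given with their SE, and a gene is called risen or fallen where edgeR's quasi-likelihood test, adjusted by Benjamini-Hochberg over all 14988 genes, gave a p under 0.05. At 2 h TRAP1 raised 12 of the 42 (15.7% of all tested genes rose) and lowered 13 (14.3% of all fell, 30.1% changed either way). TRAP-1-NegP raised 15 (16.4% of all) and lowered 10 (13.9%), and JQ1 raised 9 (14.8%) and lowered 13 (13.9%). The medians of the 42 were then −0.07, 0.05 and −0.04 with TRAP1, TRAP-1-NegP and JQ1, against 0.01, 0.01 and 0.02 for all tested genes. Of the 25 calls of TRAP1 at 2 h, 20 held whichever library was left out, and the highest adjusted p of the others was BYSL 0.17 without TRAP1 2 h replicate 1, DDX21 0.19 without DMSO 2 h replicate 1, EBNA1BP2 0.089 without TRAP1 2 h replicate 1, FBL 0.066 without DMSO 2 h replicate 3 and RRP1B 0.11 without DMSO 2 h replicate 1. For TRAP-1-NegP at 2 h these were DKC1 0.061 without TRAP-1-NegP 2 h replicate 2, GAR1 0.23 without DMSO 2 h replicate 1 and NAT10 0.22 without DMSO 2 h replicate 3, and for JQ1 DKC1 0.05 without DMSO 2 h replicate 3, IMP4 0.22 without DMSO 2 h replicate 1, NHP2 0.086 without JQ1 2 h replicate 1 and NOP10 0.17 without DMSO 2 h replicate 1.

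At 4 h TRAP1 raised 7 of the 42 (22.2% of all tested genes rose) and lowered 22 (24.5% of all fell, 46.7% changed either way), with a median of −0.21 against −0.02 for all genes. TRAP-1-NegP raised 6 (18.6%) and lowered 21 (18.9%), with a median of −0.24 against −0.01. JQ1 raised 9 (24.3%) and lowered 21 (24.6%, and 48.9% either way), with a median of −0.19 against −0.01. The share of the genes that fell at 4 h was thus above the share of all genes that fell with each of these compounds. The counts that rose lay within 3 genes of what the share of all genes would give, and nothing is read from them. These 3 comparisons use the same DMSO libraries. Of the 29 calls of TRAP1 at 4 h, 24 held whichever of the 6 libraries was left out, and the highest adjusted p of the others was FBL 0.052 without DMSO 4 h replicate 1, IMP4 0.12 without TRAP1 4 h replicate 1, NIP7 0.24 without TRAP1 4 h replicate 1, NOB1 0.066 without TRAP1 4 h replicate 3 and WDR43 0.1 without TRAP1 4 h replicate 3.

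**Figure D1:**
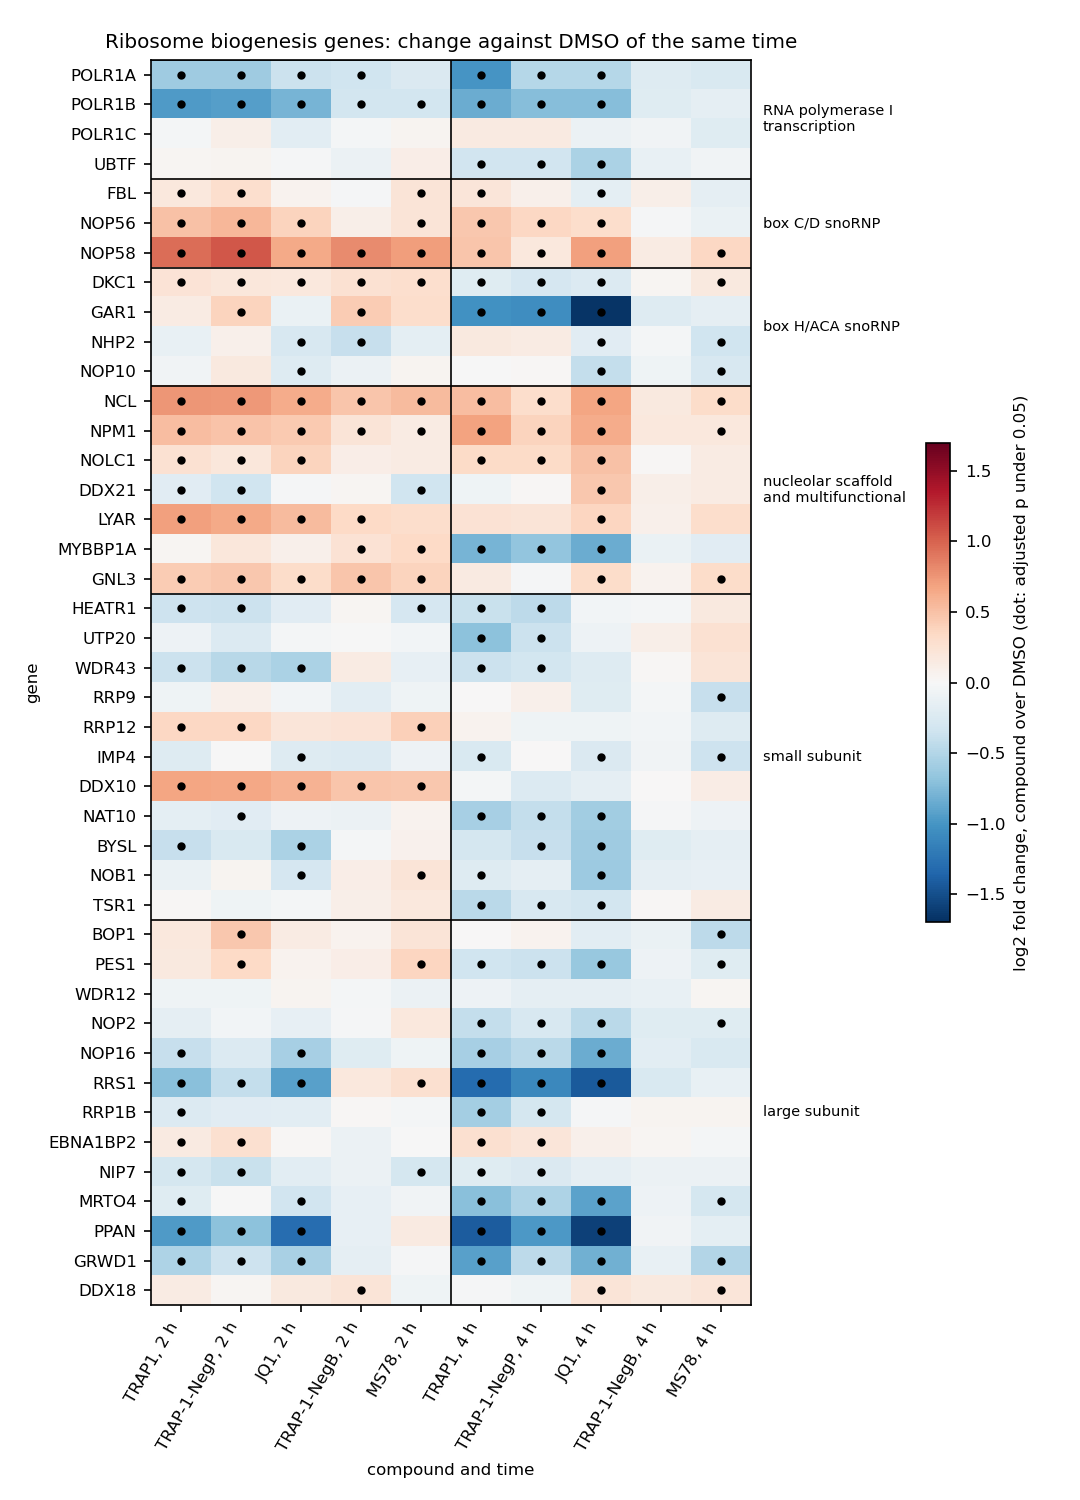
Log2 fold change of each of the 42 genes (rows, ordered by role) for each compound over DMSO of the same time (columns), on a colour scale from −1.7 to 1.7. Red is higher and blue lower than DMSO, and a black dot marks an adjusted p under 0.05. The TRAP1, TRAP-1-NegP and JQ1 columns share blue rows of differing depth for PPAN, RRS1, POLR1B and, at 4 h, GAR1. They share red rows for NOP58, NCL and NPM1, of which NOP58 with TRAP-1-NegP at 4 h is pale (0.18). The TRAP-1-NegB column of 4 h has no dot.

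The scaling of the libraries bears on these counts. CPM are counts relative to library totals adjusted by TMM factors. They assume that most genes keep their level, and less RNA per cell cannot be told apart from an unchanged amount in such data. With library totals alone the median of all genes moved to −0.29 for TRAP1 at 4 h, −0.19 for TRAP-1-NegP and −0.14 for JQ1, and at 2 h to −0.11, −0.13 and −0.06 for the same compounds. The genes then split into 4 risen and 31 fallen for TRAP1 at 4 h, 4 and 27 for TRAP-1-NegP and 7 and 28 for JQ1, and at 2 h into 8 and 18, 12 and 17, and 8 and 18. With DESeq2's size factors 10 rose and 21 fell with TRAP1 at 4 h, against 23.4% of all genes in each direction. The median of the 42 relative to that of all genes was −0.19 for TRAP1 at 4 h, −0.23 for TRAP-1-NegP and −0.18 for JQ1, a difference that a change of scaling, which shifts all genes alike, leaves nearly as it is by construction.

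Of the RNA polymerase I genes, POLR1A and POLR1B fell by 2 h and UBTF by 4 h. POLR1A and POLR1B encode the large catalytic subunits, POLR1C a subunit shared with RNA polymerase III, and UBTF the factor that binds the promoter of ribosomal DNA. POLR1A stood at 21.3, 22.7 and 24.5 CPM in the TRAP1 libraries of 4 h, at 28.5, 34.00 and 35.7 with TRAP-1-NegP and at 32.8, 34.5 and 30.3 with JQ1, against 49.4, 41.4 and 46.3 with DMSO. No library of these compounds reached the lowest DMSO library, and all TRAP1 libraries lay below all libraries of TRAP-1-NegP and JQ1. POLR1A fell with TRAP1 (−1.003 ± 0.10, adjusted p = 1.4e-12), TRAP-1-NegP (−0.48 ± 0.098, adjusted p = 5.8e-05) and JQ1 (−0.49 ± 0.098, adjusted p = 2.7e-05). At 2 h its change was already −0.60 ± 0.097, −0.60 ± 0.097 and −0.37 ± 0.096, with levels of 32.7, 35.6 and 35.8 CPM with TRAP1, 32.5, 36.3 and 35.6 with TRAP-1-NegP and 43.95, 38.3 and 39.9 with JQ1, against 54.3, 52.04 and 51.5 with DMSO.

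POLR1B moved most of the 4 at 2 h. It stood at 24.3, 24.3 and 19.4 CPM with TRAP1, 20.2, 22.01 and 26.8 with TRAP-1-NegP and 26.98, 25.5 and 24.3 with JQ1, against 45.1, 44.1 and 42.95 with DMSO, and the groups did not overlap. Its changes were −0.96 ± 0.11, adjusted p = 2.9e-10 with TRAP1, −0.93 ± 0.11, adjusted p = 7.5e-10 with TRAP-1-NegP and −0.78 ± 0.11, adjusted p = 4.6e-08 with JQ1. At 4 h the levels were 22.8, 20.9 and 17.8 CPM with TRAP1, 23.4, 20.2 and 23.5 with TRAP-1-NegP and 20.8, 22.8 and 23.2 with JQ1, against 39.1, 36.6 and 34.7 with DMSO, which is a fall by 0.84, 0.72 and 0.72 on the log2 scale. UBTF behaved otherwise: it passed no test at 2 h and fell at 4 h with all 3 compounds. At 4 h it had 89.3, 89.6 and 116 CPM with TRAP1, 94.8, 100.1 and 99.2 with TRAP-1-NegP and 80.5, 76.1 and 98.2 with JQ1, against 117, 122 and 130.5 with DMSO, changes of −0.33 ± 0.079, adjusted p = 0.00041, −0.33 ± 0.079, adjusted p = 0.00058 and −0.54 ± 0.079, adjusted p = 7.7e-08. TRAP1 replicate 3 lay just under the lowest DMSO library, and none of the 3 groups overlapped DMSO. POLR1C passed no test against DMSO, with changes between −0.20 and 0.15 over the 5 compounds at 4 h.

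Transcripts of the box C/D proteins mostly rose. FBL encodes fibrillarin, the methyltransferase of the particle, and NOP56 and NOP58 its paired core proteins. NOP58 had the largest rise of all 42 genes at 2 h: 143, 146 and 157 CPM with TRAP1, 157, 155 and 166 with TRAP-1-NegP and 117, 123 and 119 with JQ1, against 76.6, 76.1 and 77.7 with DMSO. All 9 treated libraries lay above the DMSO libraries, with changes of 0.95 ± 0.067, adjusted p = 3.8e-17, 1.05 ± 0.067, adjusted p = 1.1e-18 and 0.64 ± 0.067, adjusted p = 2.9e-11. At 4 h it had 123, 113 and 101 CPM with TRAP1, 92.4, 89.5 and 94.2 with TRAP-1-NegP and 132, 130.5 and 132 with JQ1, against 86.9, 76.02 and 80.2 with DMSO. The rise was then 0.47 ± 0.067 with TRAP1, 0.18 ± 0.068 with TRAP-1-NegP and 0.70 ± 0.067 with JQ1, and the lowest TRAP-1-NegP library lay just above the highest DMSO library.

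NOP56 was higher at both times. At 2 h it stood at 736, 707 and 735 CPM with TRAP1, 774, 755 and 734 with TRAP-1-NegP and 646, 659 and 684 with JQ1, against 513, 519 and 503 with DMSO. At 4 h it stood at 818, 823 and 836 CPM with TRAP1, 755, 771 and 773 with TRAP-1-NegP and 749, 757 and 702 with JQ1, against 590.5, 606 and 601 with DMSO. No treated library overlapped DMSO at either time. The changes at 4 h were 0.46 ± 0.043, adjusted p = 2.3e-13 with TRAP1, 0.35 ± 0.043, adjusted p = 1.5e-09 with TRAP-1-NegP and 0.30 ± 0.043, adjusted p = 6.6e-08 with JQ1. FBL parted the compounds. Its 4 h levels were 370.4, 360.1 and 355 CPM with TRAP1, 336, 327 and 333 with TRAP-1-NegP and 286, 270.4 and 283 with JQ1, against 293, 321 and 329 with DMSO. It rose with TRAP1 (0.20 ± 0.059, adjusted p = 0.0036) and fell with JQ1 (−0.17 ± 0.060, adjusted p = 0.018), and its change with TRAP-1-NegP was 0.08 ± 0.060, adjusted p = 0.31. The TRAP1 direction of FBL depends on the scaling: with library totals alone its change was −0.06. At 2 h it rose with TRAP1 (0.18 ± 0.060) and TRAP-1-NegP (0.29 ± 0.060), and its change with JQ1 was 0.06 ± 0.060.

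Of the box H/ACA genes, DKC1 turned between the times and GAR1 fell by 4 h. DKC1 encodes dyskerin, the pseudouridine synthase of the particle, and GAR1, NHP2 and NOP10 its partners. DKC1 at 2 h had 273, 256 and 265 CPM with TRAP1, 262, 268 and 243 with TRAP-1-NegP and 256, 253 and 253 with JQ1, against 225, 228 and 221 with DMSO. By 4 h DKC1 had 195, 198 and 197 CPM with TRAP1, 189, 186 and 188 with TRAP-1-NegP and 201, 200.1 and 179 with JQ1, against 243, 218 and 222 with DMSO. In TMM-scaled CPM every treated library was above DMSO at 2 h and every one was below it at 4 h. The size of the rises at 2 h depends on the scaling. With library totals alone the median of all genes at 2 h was −0.11, −0.13 and −0.06 for these compounds. The changes at 2 h were 0.24 ± 0.056, adjusted p = 0.00068 with TRAP1, 0.20 ± 0.056, adjusted p = 0.0048 with TRAP-1-NegP and 0.18 ± 0.056, adjusted p = 0.012 with JQ1. Those at 4 h were −0.21 ± 0.056, adjusted p = 0.0014 with TRAP1, −0.28 ± 0.056, adjusted p = 5.6e-05 with TRAP-1-NegP and −0.24 ± 0.056, adjusted p = 0.00038 with JQ1.

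GAR1 was the least abundant box H/ACA gene and had the largest fall at 4 h with JQ1. It then had 14.2, 12.7 and 9.09 CPM with TRAP1, 11.7, 11.97 and 11.7 with TRAP-1-NegP and 6.80, 7.25 and 8.98 with JQ1, against 25.5, 24.1 and 23.96 with DMSO. The groups were far apart, with changes of −1.02 ± 0.14, adjusted p = 1.7e-08, −1.05 ± 0.14, adjusted p = 1.5e-08 and −1.67 ± 0.15, adjusted p = 1.8e-14. At 2 h it had 22.3, 20.8 and 21.6 CPM with TRAP1, 29.02, 23.9 and 23.4 with TRAP-1-NegP and 16.4, 18.4 and 19.4 with JQ1, against 16.3, 23.6 and 18.8 with DMSO, and only the TRAP-1-NegP rise of 0.38 ± 0.14, adjusted p = 0.03 was called, with overlapping groups. That call was lost when any of 3 single libraries was left out (adjusted p = 0.23 without DMSO 2 h replicate 1). NHP2 and NOP10 fell with JQ1 alone among these 3 compounds, by 0.27 and 0.22 at 2 h and by 0.19 and 0.40 at 4 h on the log2 scale. With TRAP1 the same genes changed by −0.12 and −0.06 at 2 h and by 0.16 and 0.00 at 4 h, none of which passed.

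**Figure D2:**
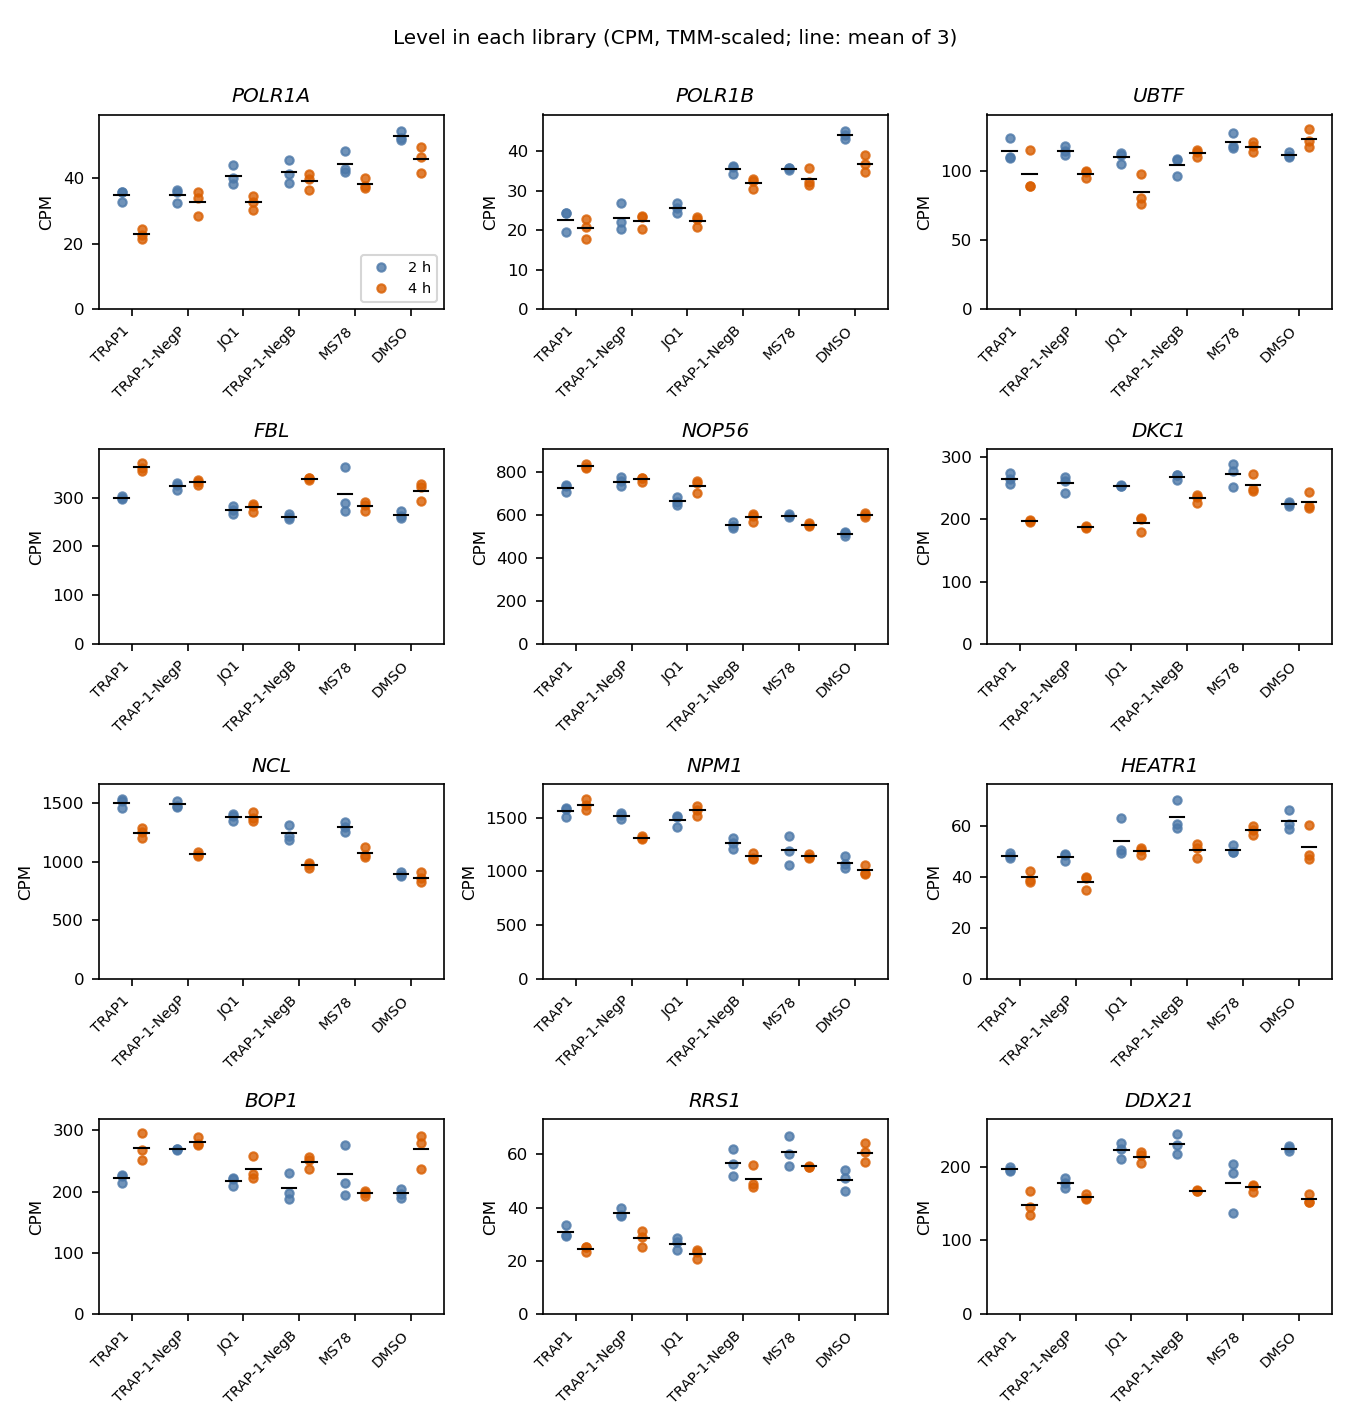
Level of 12 of the genes in each library (dots, CPM, each axis from 0) by compound, with DMSO at the right, at 2 h in blue and at 4 h in orange. A black line is the mean of 3 libraries. POLR1A, POLR1B and RRS1 sit below DMSO with TRAP1, TRAP-1-NegP and JQ1, NOP56, NCL and NPM1 sit above it, and DKC1 is above it at 2 h and below it at 4 h.

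Of the nucleolar scaffold and multifunctional genes, NCL, NPM1 and NOLC1 rose at both times with TRAP1, TRAP-1-NegP and JQ1. NCL encodes nucleolin, NPM1 nucleophosmin and NOLC1 a chaperone of guide particles. NCL at 2 h had 1532, 1462 and 1518 CPM with TRAP1, 1472, 1478 and 1522 with TRAP-1-NegP and 1348, 1392 and 1404 with JQ1, against 877, 912 and 888 with DMSO, rises of 0.75 ± 0.046, adjusted p = 1e-19, 0.74 ± 0.046, adjusted p = 2.7e-19 and 0.63 ± 0.046, adjusted p = 7.8e-17. By 4 h NCL stood at 1291, 1251 and 1206 CPM with TRAP1, 1061, 1047 and 1086 with TRAP-1-NegP and 1427, 1373 and 1346 with JQ1, against 909, 825 and 862 with DMSO. No treated library overlapped DMSO at either time, and at 4 h the TRAP-1-NegP libraries were the lowest of the treated ones.

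NPM1 rose more at 4 h with TRAP1 and JQ1 than with TRAP-1-NegP. It then had 1675, 1617 and 1573 CPM with TRAP1, 1309, 1333 and 1306 with TRAP-1-NegP and 1573, 1613 and 1521 with JQ1, against 1064, 989 and 978 with DMSO, rises of 0.68 ± 0.052, adjusted p = 1.3e-16, 0.38 ± 0.052, adjusted p = 2.1e-08 and 0.64 ± 0.052, adjusted p = 1.5e-15. All 9 treated libraries lay above DMSO. At 2 h it had 1593, 1509.8 and 1579 CPM with TRAP1, 1545, 1487 and 1524 with TRAP-1-NegP and 1412, 1510.3 and 1514 with JQ1, against 1073, 1143 and 1030.2 with DMSO. NOLC1 had 251, 239 and 235 CPM at 4 h with TRAP1, 247, 242 and 238 with TRAP-1-NegP and 284, 270.2 and 264 with JQ1, against 206, 183 and 189.8 with DMSO. It rose by 0.33 ± 0.056, 0.33 ± 0.056 and 0.50 ± 0.056, with no overlap.

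LYAR, a nucleolar regulator of growth, and GNL3, which encodes nucleostemin, rose early. LYAR at 2 h had 39.3, 31.7 and 41.1 CPM with TRAP1, 34.04, 37.99 and 36.2 with TRAP-1-NegP and 32.4, 35.2 and 32.95 with JQ1, against 25.6, 23.4 and 20.5 with DMSO, which is 0.69 ± 0.12, adjusted p = 2.9e-06 for TRAP1. By 4 h its changes were 0.25 with TRAP1 and 0.21 with TRAP-1-NegP, neither called, and 0.36 ± 0.12, adjusted p = 0.0082 with JQ1. GNL3 rose at 2 h by 0.43 ± 0.069 with TRAP1, 0.46 ± 0.069 with TRAP-1-NegP and 0.31 ± 0.069 with JQ1, and at 4 h only the JQ1 rise of 0.31 ± 0.069, adjusted p = 0.00018 was called. DDX21, an RNA helicase that acts on both ribosomal RNA synthesis and guide particles, had 167, 135 and 145 CPM at 4 h with TRAP1, 163, 156 and 158 with TRAP-1-NegP and 216, 221 and 206 with JQ1, against 164, 152 and 152 with DMSO. Only JQ1 stood clear of DMSO, by 0.46 ± 0.077, adjusted p = 2e-06, while the TRAP1 libraries lay on both sides of the DMSO ones. At 2 h DDX21 had 195, 199 and 196 CPM with TRAP1 and 185, 172 and 178 with TRAP-1-NegP, against 228, 226 and 222 with DMSO, falls by 0.19 and 0.34 on the log2 scale.

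MYBBP1A, a nucleolar protein that binds MYB and polymerase I, was the member of this group that fell at 4 h. It then had 55.5, 64.99 and 67.4 CPM with TRAP1, 68.1, 68.8 and 67.2 with TRAP-1-NegP and 55.04, 61.5 and 65.1 with JQ1, against 102, 114 and 109.9 with DMSO. Every treated library was below every DMSO library, with changes of −0.79 ± 0.078, adjusted p = 9.9e-13, −0.67 ± 0.078, adjusted p = 2.7e-10 and −0.84 ± 0.078, adjusted p = 1.4e-13. At 2 h its changes were 0.03, 0.19 and 0.09, none called. Its promoter is 1 of those printed above with an E-box.

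Of the 11 small-subunit genes, none rose at 4 h with TRAP1, TRAP-1-NegP or JQ1, and 7, 6 and 5 of them fell. HEATR1, UTP20 and WDR43 encode large proteins of the early small-subunit precursor. HEATR1 had 39.05, 42.4 and 38.3 CPM at 4 h with TRAP1, 40.1, 39.8 and 34.96 with TRAP-1-NegP and 48.8, 51.5 and 50.8 with JQ1, against 60.6, 47.00 and 48.6 with DMSO. It fell with TRAP1 (−0.38 ± 0.094, adjusted p = 0.00058) and TRAP-1-NegP (−0.44 ± 0.094, adjusted p = 0.00013), and its JQ1 libraries lay inside the DMSO range (−0.05 ± 0.093, adjusted p = 0.7). At 2 h HEATR1 had 49.6, 47.6 and 48.2 CPM with TRAP1, 49.03, 46.3 and 48.7 with TRAP-1-NegP and 63.1, 49.4 and 50.5 with JQ1, against 66.5, 58.8 and 61.1 with DMSO. UTP20 had 16.4, 18.1 and 19.9 CPM at 4 h with TRAP1 and 26.00, 28.1 and 28.4 with JQ1, against 28.5, 28.7 and 30.5 with DMSO, with TRAP1 below both (−0.69 ± 0.13, adjusted p = 1e-05). WDR43 was already lower at 2 h, by 0.37 with TRAP1, 0.47 with TRAP-1-NegP and 0.54 with JQ1 on the log2 scale.

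NAT10, which acetylates the small-subunit RNA, fell at 4 h with all 3 compounds (−0.56 ± 0.074 with TRAP1, −0.40 ± 0.074 with TRAP-1-NegP and −0.60 ± 0.074 with JQ1), and so did TSR1, a late assembly factor (−0.46 ± 0.076, −0.27 ± 0.076 and −0.31 ± 0.076). NOB1, the nuclease that makes the final cut of the small-subunit RNA, had 124, 117 and 108 CPM at 4 h with TRAP1, 127, 117 and 122 with TRAP-1-NegP and 83.9, 88.2 and 94.1 with JQ1, against 129.7, 141 and 136 with DMSO. The JQ1 libraries were the lowest (−0.61 ± 0.073, adjusted p = 3.4e-10), the TRAP1 ones were lower than DMSO by a smaller step (−0.22 ± 0.072, adjusted p = 0.011), and the TRAP-1-NegP change was −0.15 ± 0.072, adjusted p = 0.093. BYSL, which encodes bystin, fell with TRAP-1-NegP (−0.39) and JQ1 (−0.61) at 4 h and had −0.30 ± 0.13, adjusted p = 0.056 with TRAP1. IMP4, a protein of the early precursor, fell with TRAP1 (−0.26) and JQ1 (−0.24) and had 0.01 with TRAP-1-NegP.

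DDX10, an RNA helicase of the early small-subunit precursor, was the only small-subunit gene that rose at 2 h with TRAP1, TRAP-1-NegP and JQ1 alike. It then had 38.9, 39.6 and 35.99 CPM with TRAP1, 42.9, 34.6 and 36.1 with TRAP-1-NegP and 36.1, 42.3 and 29.4 with JQ1, against 20.4, 23.6 and 27.96 with DMSO, rises of 0.67 ± 0.12, adjusted p = 2.3e-05, 0.66 ± 0.13, adjusted p = 3.2e-05 and 0.59 ± 0.12, adjusted p = 0.00019. No group overlapped DMSO. By 4 h DDX10 had 23.9, 32.4 and 25.1 CPM with TRAP1, 26.4, 20.4 and 23.8 with TRAP-1-NegP and 22.7, 27.1 and 25.4 with JQ1, against 29.8, 25.3 and 28.1 with DMSO, and no change was called. RRP12, which helps precursors leave the nucleus, rose at 2 h with TRAP1 (0.35) and TRAP-1-NegP (0.35) and had 0.20 ± 0.085, adjusted p = 0.062 with JQ1. RRP9, a protein of a guide particle of the early precursor, passed no test with these 3 compounds at either time.

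**Figure D3:**
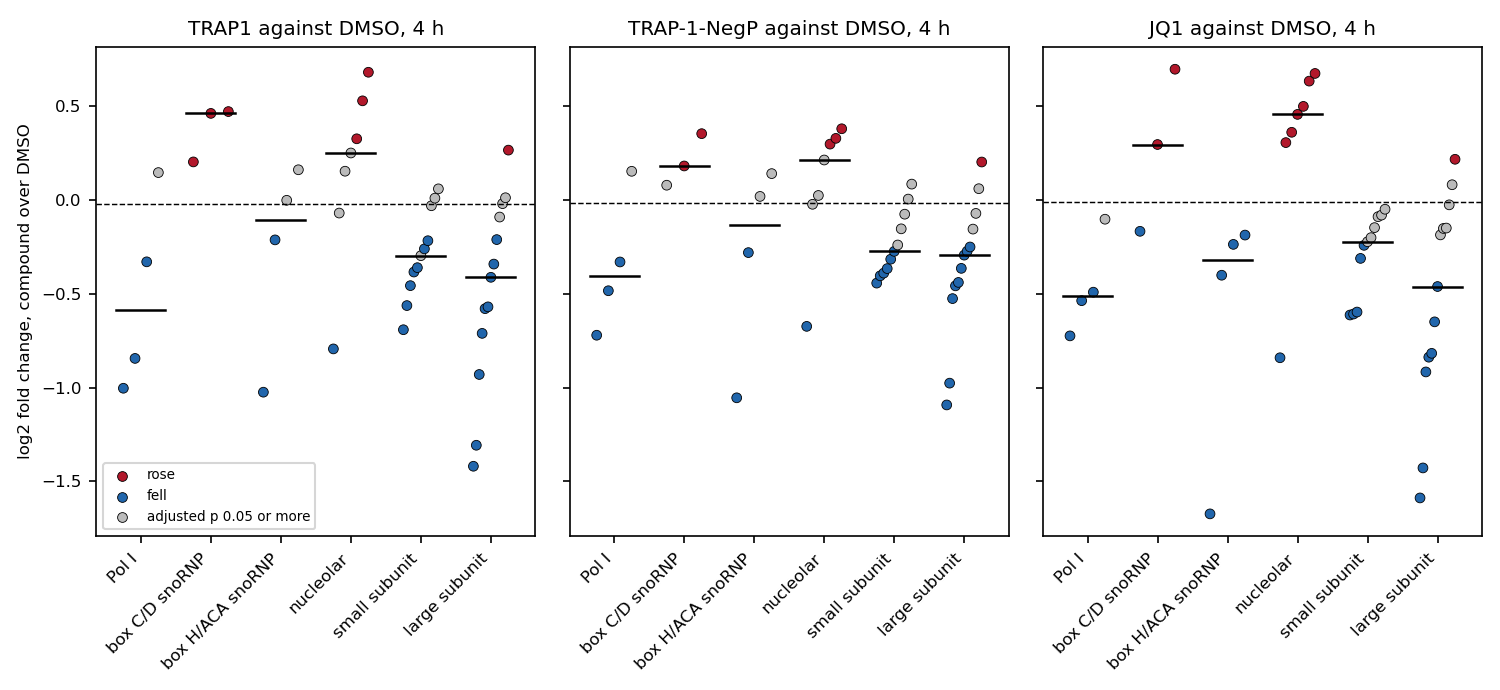
Log2 fold change at 4 h of each gene (dots) by role, for TRAP1, TRAP-1-NegP and JQ1 over DMSO. Red dots rose, blue dots fell and grey dots did not pass the test, a solid line is the median of a role and the dashed line that of all tested genes. The small-subunit dots hold no red one in any panel, whereas all 3 box C/D genes are red with TRAP1, of which FBL was no longer higher with library totals alone.

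The large-subunit genes held large falls. RRS1 encodes an assembly factor that places the small ribosomal RNA of the large subunit, and PPAN and MRTO4 encode the human counterparts of yeast assembly factors. RRS1 had 25.1, 25.3 and 23.1 CPM at 4 h with TRAP1, 31.3, 25.2 and 29.1 with TRAP-1-NegP and 20.5, 23.3 and 23.8 with JQ1, against 57.1, 60.8 and 64.2 with DMSO. At 2 h it had 29.8, 29.3 and 33.5 CPM with TRAP1, 37.1, 36.8 and 39.95 with TRAP-1-NegP and 27.1, 28.4 and 23.9 with JQ1, against 54.1, 46.1 and 51.2 with DMSO. The treated libraries were below DMSO at both times, and at 4 h the changes were −1.31 ± 0.10, adjusted p = 1.7e-16 with TRAP1, −1.09 ± 0.099, adjusted p = 1.7e-13 with TRAP-1-NegP and −1.43 ± 0.10, adjusted p = 7.1e-18 with JQ1.

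PPAN had 18.9, 21.3 and 24.2 CPM at 4 h with TRAP1, 32.4, 28.3 and 26.8 with TRAP-1-NegP and 19.1, 17.3 and 20.8 with JQ1, against 56.9, 56.9 and 58.3 with DMSO, changes of −1.42 ± 0.12, adjusted p = 6.6e-15, −0.98 ± 0.12, adjusted p = 1e-09 and −1.59 ± 0.12, adjusted p = 1.5e-16. At 2 h it had 29.5, 23.6 and 23.7 CPM with TRAP1, 28.9, 31.2 and 32.1 with TRAP-1-NegP and 23.6, 17.2 and 20.2 with JQ1, against 47.7, 47.3 and 54.2 with DMSO. The groups did not overlap at either time. PPAN shares reads with a read-through transcript into the neighbouring P2RY11, so how its reads were split is uncertain. GRWD1, a chaperone of a ribosomal protein, had 66.3, 75.3 and 82.9 CPM at 4 h with TRAP1, 103, 112 and 101 with TRAP-1-NegP and 78.2, 80.7 and 83.7 with JQ1, against 134, 139 and 154 with DMSO. It fell, with changes of −0.93 ± 0.082 with TRAP1, −0.44 ± 0.081 with TRAP-1-NegP and −0.82 ± 0.081 with JQ1.

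MRTO4 fell at 4 h with TRAP1 (−0.71 ± 0.057, adjusted p = 1.2e-15), TRAP-1-NegP (−0.52 ± 0.057, adjusted p = 5e-11) and JQ1 (−0.92 ± 0.058, adjusted p = 8.3e-20). NOP16, NOP2, which methylates the large-subunit RNA, and PES1 fell with the same 3 compounds, NOP16 with changes of −0.57, −0.46 and −0.84, NOP2 of −0.41, −0.27 and −0.46, and PES1 of −0.34, −0.36 and −0.65. PES1, BOP1 and WDR12 form 1 complex, of which BOP1 and WDR12 passed no test at 4 h with these 3 compounds. BOP1 had 251, 268 and 295 CPM at 4 h with TRAP1, 275, 278 and 289 with TRAP-1-NegP and 222, 229 and 259 with JQ1, against 236, 279 and 292 with DMSO, which overlap (0.01 ± 0.083, adjusted p = 0.92 for TRAP1). At 2 h BOP1 had 226, 225 and 214 CPM with TRAP1, 269, 269.6 and 268 with TRAP-1-NegP and 221, 209 and 222 with JQ1, against 205, 189 and 197 with DMSO, and the TRAP-1-NegP rise was called (0.45 ± 0.084, adjusted p = 4.1e-05). WDR12 passed no test with any compound at either time, and its changes at 4 h were −0.09 with TRAP1, −0.15 with TRAP-1-NegP and −0.15 with JQ1.

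RRP1B and NIP7 fell at 4 h with TRAP1 (−0.58 and −0.21) and TRAP-1-NegP (−0.29 and −0.25), and with JQ1 their changes were −0.02 and −0.15, not called. EBNA1BP2, the only large-subunit gene that rose with TRAP1, did so by 0.27 ± 0.050, adjusted p = 1.2e-05 at 4 h, and with library totals alone its change was 0.00. DDX18, an RNA helicase, rose at 4 h with JQ1 (0.22 ± 0.070, adjusted p = 0.0078) and had −0.02 with TRAP1. Of the calls of TRAP-1-NegP and JQ1 at 4 h, 21 of 27 and 25 of 30 held whichever library was left out. The highest adjusted p of the others was, with TRAP-1-NegP, BYSL 0.062 without TRAP-1-NegP 4 h replicate 2, NIP7 0.15 without DMSO 4 h replicate 2, NOP58 0.16 without DMSO 4 h replicate 2, TSR1 0.065 without TRAP-1-NegP 4 h replicate 2, UTP20 0.22 without TRAP-1-NegP 4 h replicate 3 and WDR43 0.084 without TRAP-1-NegP 4 h replicate 1, and with JQ1, DDX18 0.12 without JQ1 4 h replicate 2, FBL 0.096 without DMSO 4 h replicate 3, IMP4 0.086 without JQ1 4 h replicate 1, LYAR 0.18 without JQ1 4 h replicate 1 and NHP2 0.21 without JQ1 4 h replicate 2.

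TRAP-1-NegB and MS78 moved fewer of the genes. At 2 h TRAP-1-NegB raised 10 of the 42 (5.08% of all tested genes rose) and lowered 3 (5.87%), and MS78 raised 13 (8.30%) and lowered 4 (7.65%). NOP58 had the largest rise with both, at 140.4, 133 and 129 CPM with TRAP-1-NegB (0.81 ± 0.067, adjusted p = 1.3e-13) and 114, 129.5 and 133 with MS78 (0.71 ± 0.067, adjusted p = 2.3e-11), against 76.6, 76.1 and 77.7 with DMSO. NCL stood at 1318, 1223 and 1185 CPM with TRAP-1-NegB (0.48 ± 0.046, adjusted p = 1e-11) and 1297, 1256 and 1337 with MS78 (0.54 ± 0.046, adjusted p = 4.6e-13), against 877, 912 and 888 with DMSO. Both genes were above DMSO in every library of both compounds. GNL3 rose by 0.48 ± 0.069 and 0.38 ± 0.069 and DDX10 by 0.47 ± 0.12 and 0.45 ± 0.12. Of the 13 calls of TRAP-1-NegB at 2 h, 6 held whichever library was left out, and the highest adjusted p of the others was DDX10 0.058 without TRAP-1-NegB 2 h replicate 1, DDX18 0.19 without TRAP-1-NegB 2 h replicate 1, GAR1 0.14 without DMSO 2 h replicate 1, LYAR 0.26 without DMSO 2 h replicate 3, MYBBP1A 0.063 without DMSO 2 h replicate 3, POLR1A 0.21 without TRAP-1-NegB 2 h replicate 2 and POLR1B 0.27 without TRAP-1-NegB 2 h replicate 2. Of the 17 calls of MS78 at 2 h, 9 held, and for the others it was DDX10 0.08 without DMSO 2 h replicate 1, FBL 0.28 without MS78 2 h replicate 1, HEATR1 0.18 without DMSO 2 h replicate 1, NIP7 0.16 without MS78 2 h replicate 1, NOB1 0.52 without MS78 2 h replicate 1, NPM1 0.5 without MS78 2 h replicate 3, POLR1B 0.13 without DMSO 2 h replicate 1 and RRS1 0.24 without MS78 2 h replicate 1.

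POLR1B stood at 36.1, 34.3 and 36.1 CPM at 2 h with TRAP-1-NegB and 35.8, 35.6 and 35.1 with MS78, against 45.1, 44.1 and 42.95 with DMSO, changes of −0.31 ± 0.11, adjusted p = 0.045 and −0.31 ± 0.11, adjusted p = 0.036. All 6 treated libraries were lower than DMSO, but both calls were lost without any 1 of the 6 libraries of their comparison, with adjusted p up to 0.27 and 0.13. NHP2 had 65.4, 69.01 and 75.7 CPM with TRAP-1-NegB, against 91.2, 87.2 and 98.8 with DMSO (−0.40 ± 0.080, adjusted p = 0.00026). DDX21 and NIP7 fell with MS78, DDX21 to 138, 191 and 204 CPM, against 228, 226 and 222 with DMSO (−0.34 ± 0.077, adjusted p = 0.001), and NIP7 to 70.2, 92.2 and 92.3 CPM, against 107, 105 and 100.2 with DMSO (−0.30 ± 0.086, adjusted p = 0.011). In both genes the lowest value belongs to MS78 replicate 1, the library that stood apart, and without it NIP7 was no longer called (−0.179, adjusted p = 0.16). RRS1, which TRAP1, TRAP-1-NegP and JQ1 lowered, rose with MS78 at 2 h (0.27 ± 0.096, adjusted p = 0.041), a call lost when any of 4 single libraries was left out (adjusted p = 0.24 without MS78 2 h replicate 1). The 13 calls of TRAP-1-NegB became 8 without DMSO replicate 3 or without TRAP-1-NegB replicate 1. The 17 calls of MS78 became 2 when only its own libraries and those of DMSO were fitted, and 16 without both libraries that stood apart.

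At 4 h TRAP-1-NegB called none of the 42 (1.03% of all tested genes were called in either direction). With edgeR 8 of them had an unadjusted p under 0.05, the DESeq2 Wald test called 1 and, without DMSO replicate 1, edgeR called 2. The largest of its changes was that of RRS1, −0.26 ± 0.096, with 56.1, 47.6 and 48.8 CPM against 57.1, 60.8 and 64.2 with DMSO, and NOP58 was at 87.6, 91.2 and 88.98 CPM, against 86.9, 76.02 and 80.2 with DMSO. MS78 raised 6 at 4 h (6.23% of all) and lowered 9 (9.05%), and with library totals alone it raised 9 and lowered 6. NOP58 (0.35 ± 0.068, adjusted p = 0.00017), NCL (0.31 ± 0.046) and GNL3 (0.31 ± 0.069) had the largest rises, with NOP58 at 107, 99.9 and 102 CPM with MS78. GRWD1 was at 95.2, 100.5 and 107 CPM with MS78, against 134, 139 and 154 with DMSO (−0.50 ± 0.081, adjusted p = 9.6e-06), BOP1 at 193, 201 and 198 CPM, against 236, 279 and 292 (−0.45 ± 0.084, adjusted p = 0.0002), and RRP9 at 70.7, 61.9 and 73.1 CPM, against 77.3, 102 and 89.9 (−0.39 ± 0.10, adjusted p = 0.0064). In each of the 3 the groups did not overlap, which was a condition for naming them. The same held for all 9 genes that fell, but the share of all called genes without overlap was not counted. Without DMSO replicate 2 the RRP9 change was −0.251 and no longer called. Of the 15 calls of MS78 at 4 h, 8 held whichever library was left out, and the highest adjusted p of the others was DDX18 0.11 without MS78 4 h replicate 1, DKC1 0.25 without MS78 4 h replicate 1, NOP10 0.11 without MS78 4 h replicate 2, NOP2 0.43 without DMSO 4 h replicate 1, NPM1 0.06 without MS78 4 h replicate 1, PES1 0.31 without DMSO 4 h replicate 2 and RRP9 0.13 without DMSO 4 h replicate 2. POLR1A, POLR1B, PPAN, RRS1 and GAR1, which all fell with the other 3 compounds at that time, passed no test with MS78 at 4 h (−0.26, −0.16, −0.17, −0.13 and −0.15).

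The compounds were then set against each other at the same dose and time, in 6 pairings, with p adjusted over all genes within each. TRAP1 and TRAP-1-NegP at 2 h called none of the 42 (0.801% of all tested genes were called, 0.527% as higher with TRAP1). With edgeR 12 had an unadjusted p under 0.05, and the DESeq2 Wald test called 2. The intervals were not narrow: the difference of TRAP1 over TRAP-1-NegP was −0.30 ± 0.10 for RRS1 with a 95% interval of −0.50 to −0.10, and −0.28 ± 0.084 for BOP1 with an interval of −0.44 to −0.12. When only these libraries were fitted, 8 genes were called.

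At 4 h TRAP1 was higher than TRAP-1-NegP in 3 of the 42 (7.25% of all) and lower in 6 (8.09%). Both counts lie near these shares, and nothing is read from the counts. The higher ones were NPM1, with 1675, 1617 and 1573 CPM for TRAP1 and 1309, 1333 and 1306 for TRAP-1-NegP (0.30 ± 0.052, adjusted p = 1.6e-05), NOP58 (0.29 ± 0.067, adjusted p = 0.0014) and NCL (0.23 ± 0.045, adjusted p = 0.00017). The lower ones were POLR1A, with 21.3, 22.7 and 24.5 CPM for TRAP1 and 28.5, 34.00 and 35.7 for TRAP-1-NegP (−0.52 ± 0.10, adjusted p = 0.00012), GRWD1 (−0.49 ± 0.082, adjusted p = 9.3e-06), PPAN (−0.44 ± 0.12, adjusted p = 0.0079), RRP1B (−0.29), IMP4 (−0.27) and MRTO4 (−0.19). Each of the 9 had no overlap between its groups, but the share of all called genes without overlap was not counted. The 9 calls became 5 without TRAP1 replicate 1, and 15, split into 3 higher and 12 lower, with library totals alone. Calls that 1 library decided, with their highest adjusted p, were IMP4 0.22 without TRAP1 4 h replicate 1, MRTO4 0.085 without TRAP-1-NegP 4 h replicate 2, PPAN 0.069 without TRAP-1-NegP 4 h replicate 1 and RRP1B 0.19 without TRAP1 4 h replicate 1.

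TRAP1 and JQ1 at 2 h differed in 1 gene (1.99% of all, with 1.10% higher and 0.887% lower): NOP58 had 143, 146 and 157 CPM with TRAP1 and 117, 123 and 119 with JQ1 (0.31 ± 0.066, adjusted p = 0.0029). That call was lost without TRAP1 replicate 3 (adjusted p = 0.055), and the DESeq2 Wald test called 3 genes. At 4 h TRAP1 was higher than JQ1 in 12 of the 42 (12.5% of all) and lower in 9 (14.9%). GAR1 had 14.2, 12.7 and 9.09 CPM with TRAP1 and 6.80, 7.25 and 8.98 with JQ1 (0.65 ± 0.15, adjusted p = 0.00064), NOP10 had 103, 97.9 and 99.9 and 72.9, 79.9 and 75.5 (0.40 ± 0.083, adjusted p = 0.00017), and NOB1 had 124, 117 and 108 and 83.9, 88.2 and 94.1 (0.40 ± 0.073, adjusted p = 2.9e-05). All TRAP1 libraries were above all JQ1 ones in these genes, which was a condition for naming them, and in 11 of the 12. In the other direction UTP20 had 16.4, 18.1 and 19.9 CPM with TRAP1 and 26.00, 28.1 and 28.4 with JQ1 (−0.60 ± 0.13, adjusted p = 0.00027), RRP1B had 33.9, 43.6 and 39.7 and 65.7, 55.8 and 50.7 (−0.55 ± 0.087, adjusted p = 1.4e-06), and DDX21 had 167, 135 and 145 and 216, 221 and 206 (−0.53 ± 0.077, adjusted p = 5.8e-07). The other genes with TRAP1 above JQ1 were FBL, NHP2, PES1, NOP16, POLR1C, UBTF, MRTO4, EBNA1BP2 and NOP56, and those with TRAP1 below it were POLR1A, HEATR1, DDX18, NOP58, NOLC1 and NCL. With library totals alone 6 were higher and 12 lower. Calls that 1 library decided, with their highest adjusted p, were DDX18 0.12 without JQ1 4 h replicate 2, NCL 0.094 without TRAP1 4 h replicate 3, NOLC1 0.092 without JQ1 4 h replicate 1, NOP16 0.29 without JQ1 4 h replicate 1, NOP58 0.14 without TRAP1 4 h replicate 3, POLR1C 0.26 without JQ1 4 h replicate 2 and UBTF 0.49 without TRAP1 4 h replicate 3.

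JQ1 was lower than TRAP-1-NegP at 2 h in 15 of the 42 (7.26% of all) and higher in 2 (5.65%), which became 13 and 4 with library totals alone. PPAN had 23.6, 17.2 and 20.2 CPM with JQ1 and 28.9, 31.2 and 32.1 with TRAP-1-NegP (−0.60 ± 0.12, adjusted p = 0.00049), RRS1 had 27.1, 28.4 and 23.9 and 37.1, 36.8 and 39.95 (−0.52 ± 0.10, adjusted p = 0.00025), and GAR1 had 16.4, 18.4 and 19.4 and 29.02, 23.9 and 23.4 (−0.49 ± 0.14, adjusted p = 0.011). The higher genes were DDX21, with 224, 233 and 211 CPM for JQ1 and 185, 172 and 178 for TRAP-1-NegP (0.32 ± 0.077, adjusted p = 0.0033), and NOLC1 (0.19 ± 0.055, adjusted p = 0.016). At 4 h JQ1 was lower in 18 (12.9% of all) and higher in 9 (12.9%), with 25.7% of all called. GAR1 (−0.62 ± 0.15, adjusted p = 0.0014), PPAN (−0.61 ± 0.12, adjusted p = 0.00016) and NOB1 (−0.46 ± 0.073, adjusted p = 4.3e-06) had the largest differences downward, and NOP58 (0.52 ± 0.067, adjusted p = 7.5e-08), DDX21 (0.43 ± 0.077, adjusted p = 3.8e-05) and HEATR1 (0.39 ± 0.095, adjusted p = 0.0013) the largest upward. These 6 were picked among calls whose groups do not overlap, which held for 16 of the 18 lower genes and all 9 higher ones. The 27 calls of 4 h became 17 without JQ1 replicate 1, and 16 of them held whichever library was left out. At 2 h the calls that 1 library decided, with their highest adjusted p, were BOP1 0.068 without JQ1 2 h replicate 2, GAR1 0.11 without TRAP-1-NegP 2 h replicate 1, NOLC1 0.14 without JQ1 2 h replicate 2, NOP16 0.13 without JQ1 2 h replicate 2, PES1 0.055 without JQ1 2 h replicate 2 and POLR1C 0.39 without JQ1 2 h replicate 2.

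Where the effect of a compound differed between the times, it was nearly always lower at 4 h. The difference between the effect at 4 h and that at 2 h was tested for each compound, which uses both DMSO groups. With TRAP1 it was negative in 19 of the 42 (11.8% of all tested genes) and positive in none (10.2%). With edgeR 23 genes had an unadjusted p under 0.05 in either direction, and with DESeq2's size factors 1 positive difference was called. With TRAP-1-NegP it was negative in 14 (12.2%) and positive in 1 (11.0%), and with JQ1 negative in 14 (12.8%) and positive in 1 (13.2%). GAR1 had the largest, −1.16 ± 0.20, adjusted p = 9.3e-06 with TRAP1, −1.43 ± 0.20, adjusted p = 1.8e-07 with TRAP-1-NegP and −1.56 ± 0.20, adjusted p = 2.4e-08 with JQ1. MYBBP1A followed with TRAP1 (−0.82 ± 0.11) and JQ1 (−0.93 ± 0.11), and DDX10 with TRAP-1-NegP (−0.90 ± 0.18). NOP58 lost most of its early rise with TRAP-1-NegP (−0.87 ± 0.095, adjusted p = 5.3e-10) and some of it with TRAP1 (−0.48 ± 0.095), and with JQ1 its difference was 0.06 ± 0.095, not called. The single positive difference was that of DDX21, with TRAP-1-NegP (0.36 ± 0.11, adjusted p = 0.012) and JQ1 (0.47 ± 0.11, adjusted p = 0.00072). Whichever library was left out, 13 of the 19 calls held with TRAP1, all 15 with TRAP-1-NegP and 11 of the 15 with JQ1. The highest adjusted p of the others was, with TRAP1, GNL3 0.12, LYAR 0.16, POLR1A 0.089, PPAN 0.18, RRP1B 0.17 and UBTF 0.065. With JQ1 it was BOP1 0.098, FBL 0.14, NOP2 0.067 and TSR1 0.13.

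**Figure D4:**
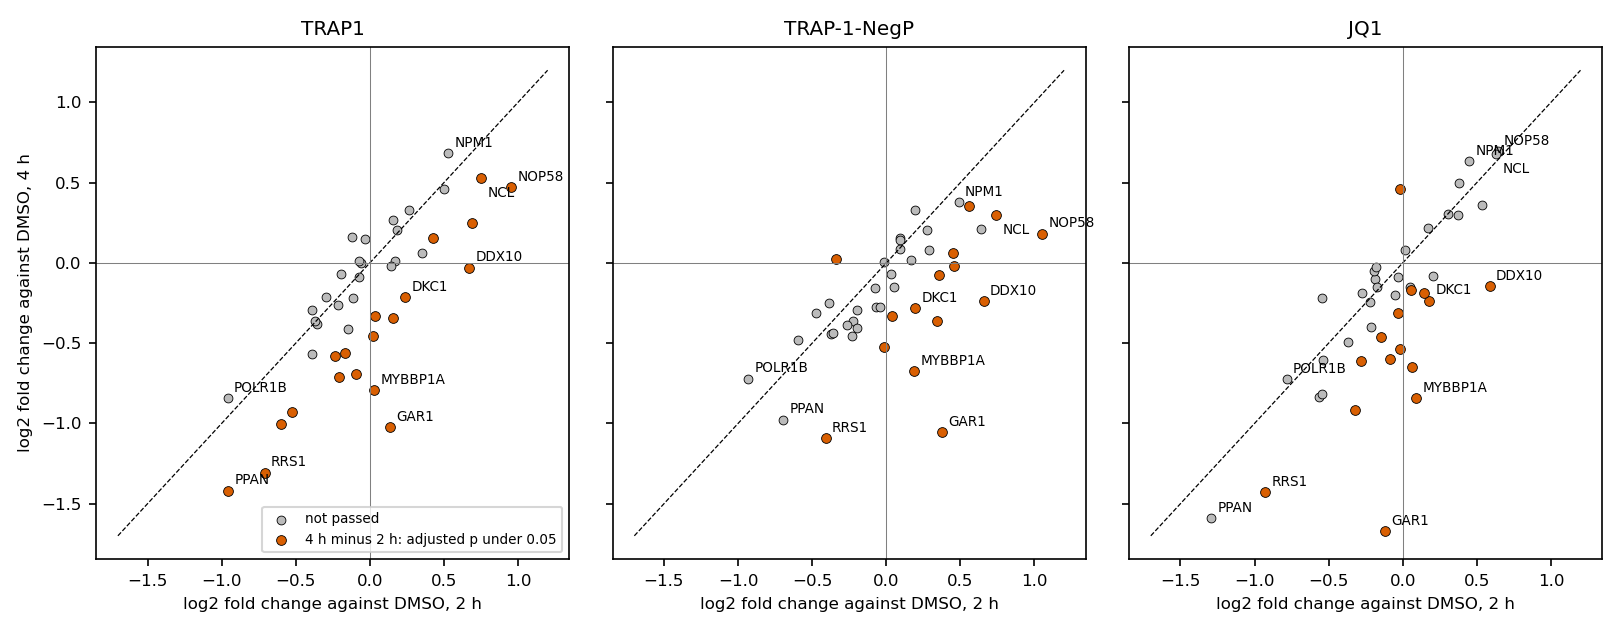
Log2 fold change over DMSO at 4 h (vertical) against that at 2 h (horizontal) for each of the 42 genes, with TRAP1, TRAP-1-NegP and JQ1. Orange dots had an adjusted p under 0.05 for the difference between the times, and the dashed line marks equal effects. Most orange dots lie under the line, GAR1 farthest from it in each panel, and DDX21 is the orange dot above it with TRAP-1-NegP and JQ1.

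The DMSO libraries themselves moved with time, which touches each such difference. Between DMSO at 4 h and at 2 h, 12 of the 42 were higher at 4 h (11.4% of all) and 8 were lower (9.45%). BOP1 had 236, 279 and 292 CPM at 4 h and 205, 189 and 197 at 2 h (0.45 ± 0.084, adjusted p = 0.00011), PES1 had 159, 175 and 163 and 129, 127 and 134 (0.35 ± 0.070, adjusted p = 0.00022), and RRP12 had 71.6, 76.4 and 77.8 and 58.6, 56.7 and 63.4 (0.34 ± 0.084, adjusted p = 0.0023). DDX21 had 164, 152 and 152 CPM at 4 h and 228, 226 and 222 at 2 h (−0.53 ± 0.077, adjusted p = 1.3e-06), UTP20 had 28.5, 28.7 and 30.5 and 41.3, 36.96 and 45.1 (−0.49 ± 0.12, adjusted p = 0.0025), and WDR43 had 52.8, 52.7 and 52.5 and 71.6, 71.2 and 68.4 (−0.42 ± 0.10, adjusted p = 0.0024). NCL and NPM1 moved less, by −0.04 ± 0.045 and −0.10 ± 0.052, neither called. The 20 calls became 13 without DMSO 4 h replicate 3, and with library totals alone 7 were higher and 14 lower. Only 10 of the 20 held whichever library was left out. The others were GRWD1, HEATR1, MRTO4, MYBBP1A, NOB1, NOLC1, NOP10, NOP2, RRS1 and TSR1, with an adjusted p of up to 0.26 (RRS1 without DMSO 2 h replicate 2).

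The summed level of the 42 genes hid this division. The sum at 4 h was 7552, 7435 and 7418 CPM with TRAP1, 6910, 6962 and 7050 with TRAP-1-NegP and 7387, 7362 and 7202 with JQ1, against 6699, 6651 and 6672 with DMSO, so that it was higher in every treated library. The 5 genes with the highest TPM in DMSO, NPM1, NOP10, FBL, NCL and NOP56, summed to 4258, 4149 and 4070 CPM with TRAP1, 3562, 3574 and 3605 with TRAP-1-NegP and 4109, 4093 and 3928 with JQ1, against 2955, 2842 and 2871 with DMSO. The other 37 summed to 3294, 3287 and 3349 CPM with TRAP1, 3348, 3388 and 3445 with TRAP-1-NegP and 3278, 3269 and 3273 with JQ1, against 3744, 3809 and 3801 with DMSO. At 4 h the sum of the 5 was thus higher and the sum of the 37 lower in every library of these compounds, but not every gene moved with its sum. At 2 h the 37 summed to 3723, 3715 and 3701 CPM with TRAP1 and 3910, 3868 and 3877 with TRAP-1-NegP. With JQ1 they then summed to 3601, 3635 and 3617, against 3726, 3673 and 3682 with DMSO. The changes of single genes that follow are those of 4 h. Of the 5, NOP10 and FBL fell with JQ1 (−0.40 and −0.17) and NOP10 passed no test with TRAP1, and of the 37, NOP58, NOLC1 and EBNA1BP2 rose with TRAP1 (0.47, 0.33 and 0.27). As a share of all counts, with no TMM factor, the 42 genes took 0.634% ± 0.0156 with TRAP1, 0.632% ± 0.007 with TRAP-1-NegP and 0.685% ± 0.00953 with JQ1 at 4 h, against 0.683% ± 0.0091 with DMSO (SD, n = 3). The direction of the sum at 4 h with TRAP1 and TRAP-1-NegP thus depends on the scaling. At 2 h the shares were 0.783% with TRAP1, 0.793% with TRAP-1-NegP and 0.765% with JQ1, against 0.706% with DMSO.

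The other genes of the pathway were read from lists that share no gene with the 42. Of 46 further small-subunit factors, 6 rose and 20 fell at 4 h with TRAP1 (median −0.16), 4 and 24 with TRAP-1-NegP (−0.24) and 5 and 21 with JQ1 (−0.19). Of 43 further large-subunit factors, 5 rose and 21 fell with TRAP1 (−0.20), 4 and 21 with TRAP-1-NegP (−0.19) and 6 and 23 with JQ1 (−0.33), and of 32 further subunits and factors of polymerases I and III, 5 and 16, 1 and 15, and 4 and 19. UTP18 and EMG1 of the small-subunit list fell by 1.25 and 1.08 on the log2 scale with TRAP1, and POLR1E among the polymerase genes went the other way, by 1.43 ± 0.084 with TRAP1, against −0.29 ± 0.086 with TRAP-1-NegP and −0.32 ± 0.086 with JQ1. At 2 h of TRAP1, 8 rose and 7 fell of the small-subunit list, 16 and 8 of the large-subunit list, and 4 and 8 of the polymerase list, while 15.7% of all tested genes rose and 14.3% fell. The counts of the small-subunit list lie near these shares.

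The products that this machinery assembles moved differently. Of 79 genes of cytosolic ribosomal proteins, 75 rose and 0 fell at 4 h with TRAP1 (median 0.42), 69 and 0 with TRAP-1-NegP (0.24), and 12 and 14 with JQ1 (−0.04). RPL7, a protein of the large subunit, rose by 0.83 ± 0.044 with TRAP1, 0.20 ± 0.044 with TRAP-1-NegP and 0.37 ± 0.044 with JQ1. TRAP1 was higher than JQ1 in 78 of the 79 at 4 h (median 0.46), so that this group parted TRAP1 from JQ1 where the 42 genes were divided, 12 higher and 9 lower. Of 72 mitochondrial ribosomal proteins, 6 rose and 32 fell with TRAP1, 1 and 30 with TRAP-1-NegP and 0 and 53 with JQ1. These lists were not counted with library totals alone, and the shifts of all genes given above apply to them too.

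**Figure D5:**
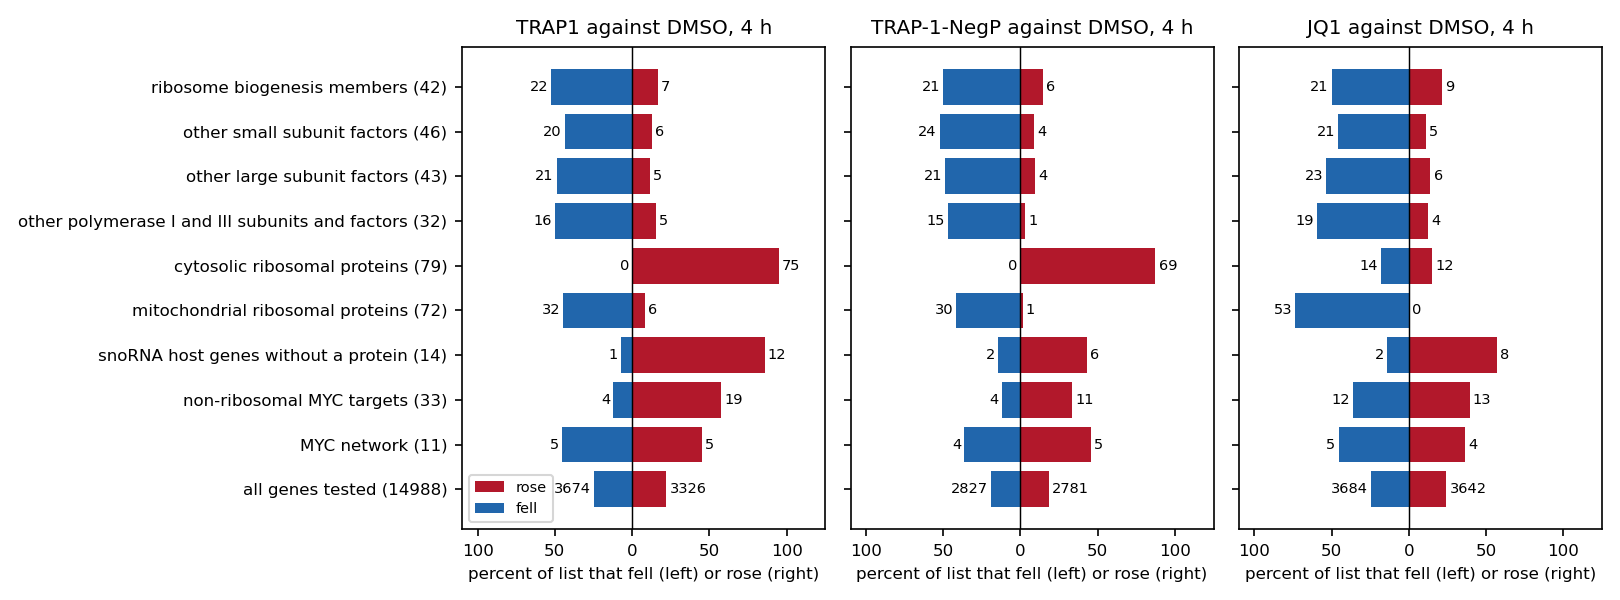
Percent of each gene list that fell (blue, to the left) or rose (red, to the right) at 4 h with TRAP1, TRAP-1-NegP and JQ1 over DMSO, with the number of genes at the bar's end and the list's size in brackets. The 42 genes and the other assembly and polymerase factors lean to the left in all panels, and cytosolic ribosomal proteins stand out to the right with TRAP1 (75 of 79) and TRAP-1-NegP (69 of 79) but not with JQ1.

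MYC, whose protein drives many of these genes, had 59.9, 61.1 and 55.05 CPM at 2 h with TRAP1, 73.6, 71.3 and 75.4 with TRAP-1-NegP and 54.9, 50.1 and 54.2 with JQ1, against 92.6, 90.98 and 83.8 with DMSO. By 4 h MYC stood at 79.1, 78.05 and 84.7 CPM with TRAP1, 74.7, 66.4 and 79.7 with TRAP-1-NegP and 68.8, 72.3 and 67.5 with JQ1, against 111, 107 and 104 with DMSO. It was below DMSO in every one of these libraries, with changes of −0.60 ± 0.076, −0.28 ± 0.076 and −0.75 ± 0.077 at 2 h and −0.42 ± 0.076, −0.55 ± 0.076 and −0.63 ± 0.076 at 4 h. Of 33 MYC targets outside ribosome production, 19 rose and 4 fell with TRAP1 at 4 h, 11 and 4 with TRAP-1-NegP, and 13 and 12 with JQ1. Among the 42 genes, the 13 with an E-box in the promoter window had 2 risen and 8 fallen with TRAP1 at 4 h (median −0.34), and the 22 with an entry but no E-box had 3 risen and 12 fallen (−0.21). With TRAP-1-NegP the 13 had 1 risen and 8 fallen (−0.31) and the 22 had 3 risen and 11 fallen (−0.24), and with JQ1 the 13 had 0 risen and 9 fallen (−0.40) and the 22 had 6 risen and 11 fallen (−0.17). At 2 h the medians of the 13 and the 22 were −0.09 and −0.06 with TRAP1, −0.01 and 0.05 with TRAP-1-NegP, and −0.09 and −0.08 with JQ1. Over all tested genes at 4 h, 22.2% rose and 24.5% fell with TRAP1, 18.6% and 18.9% with TRAP-1-NegP, and 24.3% and 24.6% with JQ1. The difference between the 13 and the 22 was not tested.

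A feature the choice of genes did not use is a snoRNA gene lying within the span of the gene. By GENCODE 29, 9 of the 42 host at least 1 snoRNA on their own strand: GNL3 and NOP56 host 5 each, NOP58 hosts 4, NCL and WDR43 host 3 each, DKC1, TSR1 and PPAN host 2 each, and POLR1C hosts 1. Among all tested protein-coding genes 1.7% are hosts. At 2 h of TRAP1, 5 of the 9 rose and 2 fell (median 0.24), against 7 and 11 of the other 33 (−0.09). Of all 12796 protein-coding genes tested, 2187 then rose and 1987 fell. At 4 h 3 of the 9 rose and 4 fell (0.15), against 4 and 18 of the 33 (−0.26), and 3085 and 3306 of the 12796. Of 209 other host genes, 77 rose and 45 fell at 4 h (0.15), and of 14 snoRNA hosts that make no protein, 12 rose and 1 fell with TRAP1, 6 and 2 with TRAP-1-NegP, and 8 and 2 with JQ1. SNHG1, one of these, rose by 1.26 ± 0.067 with TRAP1. Over all tested genes at 4 h, 22.2% rose and 24.5% fell with TRAP1, 18.6% and 18.9% with TRAP-1-NegP, and 24.3% and 24.6% with JQ1. The feature was chosen after the values of the genes were known, so these counts are a description.

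For NOP56 the transcript table splits the counts between the coding RefSeq transcript and 1 other transcript with no RefSeq accession. The coding transcript took 42.4% ± 0.951 of NOP56 counts with TRAP1 at 2 h, 44.1% ± 1.36 with TRAP-1-NegP and 41.4% ± 2.51 with JQ1, against 29.6% ± 3.01 with DMSO (SD, n = 3). At 4 h it took 39.4% ± 1.09 with TRAP1, 41% ± 3.53 with TRAP-1-NegP and 42% ± 2.27 with JQ1, against 33.1% ± 0.88 with DMSO. The share was higher in each treated library than in each DMSO library of its time. It was also higher with TRAP-1-NegB at 2 h (39.8% ± 2.93), at 4 h it was 34.1% ± 1.44 with that compound, and MS78 had 33.6% ± 4.04 and 36.1% ± 2.22. The shares were not tested, and they are Salmon's own division of reads that both transcripts can explain.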

How the data were processed

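Polyadenylated RNA of BxPC-3 cells was sequenced in 36 libraries, with reads of 150 bases and quantification by Salmon 1.10.3 in nf-core/rnaseq 3.18.0, per the series' design text. The submitters' processing notes name build hg38. The deposited gene tables hold expected counts (estimated, not whole) and TPM made by the authors, and a transcript table holds the expected counts behind the NOP56 shares. The annotation release and the strandedness of the libraries are not given in the sources used here. Expected counts were rounded to whole numbers. Genes were kept by edgeR's filterByExpr with a minimum count of 10, scaled by TMM and tested with edgeR 4.0.16 (limma 3.58.1, R 4.3.3), using the quasi-likelihood test over all 12 groups of 3 libraries in 1 fit, with Benjamini-Hochberg adjustment over all tested genes and a threshold of 0.05. DESeq2 1.42.0 was an alternative, and the scripts were tested on simulated data. Other alternatives were library totals alone, no filter, length-scaled counts, only the groups compared, the replicate block and each library left out. All 42 genes are named, and values per library are given for a panel of 12 fixed by role. They are also given for up to 3 genes per direction and comparison with the largest called changes. Except for the differences between the times, these were picked among calls whose groups do not overlap in CPM. Lack of overlap in genes picked this way is therefore no finding, and its share over all called genes was not counted. The genes and lists were chosen with earlier results of these data known. Figures were drawn with matplotlib 3.10.9.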

Additional observations from a re-analysis of the deposited data

Results flagged for a closer look

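The effect of a compound differed between 4 h and 2 h in DKC1, GAR1 and PES1, among other genes (edgeR quasi-likelihood test, Benjamini-Hochberg adjusted over all genes). The log2 effect of 4 h minus that of 2 h was −0.448 for DKC1 with TRAP1, −0.476 with TRAP-1-NegP and −0.413 with JQ1. DKC1 had risen at 2 h and fallen at 4 h with each, and the size of its rises at 2 h depends on the scaling. The difference between the times was −1.16 for GAR1 with TRAP1, −1.43 with TRAP-1-NegP and −1.56 with JQ1. GAR1 had risen at 2 h with TRAP-1-NegP, while its changes at 2 h of 0.14 with TRAP1 and −0.12 with JQ1 were not called. PES1 had risen at 2 h and fallen at 4 h with TRAP-1-NegP, a difference of −0.706. Over the 42 genes, the difference between the times passed in 19 with TRAP1, 15 with TRAP-1-NegP and 15 with JQ1. All of these use the DMSO libraries of both times, which themselves differed in 20 of the 42 genes (20.8% of all tested genes).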

How the results depend on the processing

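Counts of called genes, given here in the order of compounds used above, mostly stayed within 1.5 times their value. Leaving out 1 library at a time gave, at 2 h, 10 to 12 risen and 10 to 11 fallen with TRAP1, 14 to 15 and 9 to 10 with TRAP-1-NegP, 9 and 11 to 12 with JQ1, 8 to 13 called with TRAP-1-NegB and 13 to 18 with MS78. At 4 h it gave 7 risen and 20 to 22 fallen with TRAP1, 5 to 6 and 18 to 21 with TRAP-1-NegP, 8 to 9 and 18 to 23 with JQ1, 0 to 2 called with TRAP-1-NegB and 10 to 16 with MS78. Between compounds it gave 0 for TRAP1 over TRAP-1-NegP, 0 to 1 for TRAP1 over JQ1 and 12 to 17 for JQ1 over TRAP-1-NegP at 2 h, and 5 to 10, 15 to 22 and 17 to 24 at 4 h. The difference between the times gave 14 to 19 with TRAP1, 15 to 17 with TRAP-1-NegP and 12 to 17 with JQ1, and DMSO at 4 h over 2 h gave 13 to 22.

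With only the groups compared in the fit, the count was 2 for MS78 at 2 h, 2 for TRAP-1-NegB at 4 h, 8 for TRAP1 over TRAP-1-NegP and 5 for TRAP1 over JQ1 at 2 h. With the DESeq2 Wald test it was 1 for TRAP-1-NegB at 4 h, and at 2 h it was 2 for TRAP1 over TRAP-1-NegP and 3 for TRAP1 over JQ1. With no filter on low counts it was 1 for TRAP1 over TRAP-1-NegP at 2 h and 1 for TRAP-1-NegB at 4 h, and with length-scaled counts 1 for the same TRAP-1-NegB comparison. With library totals alone, 17 genes fell with TRAP-1-NegP at 2 h, 4 rose with TRAP1 at 4 h and 15 were called for TRAP1 over TRAP-1-NegP at 4 h. That scaling also changed the sign of 5 genes with TRAP1 at 4 h, each called with only 1 of the scalings. FBL was then −0.0648, RRP9 −0.259, RRP12 −0.209, BOP1 −0.257 and EBNA1BP2 −0.0024. With edgeR's test FBL (adjusted p = 0.32) and EBNA1BP2 (adjusted p = 0.97) were then no longer called, while RRP9, RRP12 and BOP1 were called only then. The cause of these differences was not tested.

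The replicate numbers do not pair the libraries: 0 of 51 pairs correlated over 0.1, with r between −0.0463 and 0.0644. With the replicate block, 12 rose and 12 fell with TRAP1 at 2 h, 9 and 11 with JQ1, 12 were called with TRAP-1-NegB and 16 with MS78, and at 4 h 7 and 22 with TRAP1, 6 and 21 with TRAP-1-NegP and 9 and 21 with JQ1. No count moved by over 1.5 times with the block.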
